A study of Mus musculus with 12 samples.

Results

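The levels of 10 genes of the Notch pathway were followed through 12 RNA-seq libraries of mouse muscle stem cells (MuSCs) and myoblasts. They are the receptors Notch1, Notch2 and Notch3, the ligands Dll1 and Jag1, the transcription factor Rbpj, the ubiquitin ligase Dtx4 and the target genes Hes1, Hey1 and Heyl. The 10 members were found by gene symbol, and all 10 were listed and tested in both deposited tables, among 15345 tested of 16503 listed genes in the culture comparison and 15304 of 16169 in the genotype comparison. For the culture comparison, each of 3 WT mice gave fresh MuSCs, taken at the sort, and myoblasts, which were the sorted cells after 3 days in growth medium with serum and bFGF. For the genotype comparison, MuSCs were freshly sorted from 3 WT mice (Nedd4L-WT) and 3 Nedd4L-cKO mice, all males of 5 to 6 weeks. Nedd4L-cKO mice are Nedd4L fl/fl Pax7 cre/+ on a C57BL/6 background, in which Cre is made from the Pax7 locus and removes an exon of the catalytic domain of the E3 ubiquitin ligase Nedd4L, while a transcript is still made. Whether the WT mice carried Cre or floxed alleles was not stated in the sources used here. Every library was made from 1000 cells, which for MuSCs were sorted into lysis buffer and for myoblasts were counted after the culture.

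Notch receptors are single-pass membrane proteins that are activated by Delta and Jagged ligands on a neighbouring cell. Binding leads to cleavage of the receptor by an ADAM protease and by gamma-secretase, and the freed intracellular domain enters the nucleus, where it joins RBPJ and Mastermind proteins and switches on targets such as the Hes and Hey repressors. In MuSCs, Notch signalling is known for keeping the cells quiescent and in their niche, and it is known to decline when the cells activate and commit to the myogenic fate.

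The values are normalized counts rescaled to RPM, a level relative to the mean library total, by a constant for each table, and a log2 fold change is that of RPM + 1, which understates the change of lowly expressed genes. A gene was called when its adjusted p did not exceed 0.05 (limma, Benjamini-Hochberg adjustment over all tested genes), and a call between genotypes also required a log2 fold change of 1 or more in size and a mean level of 5 RPM or more. RPM values are given in the order of replicates 4, 5 and 6 in the culture comparison and of replicates 1, 2 and 3 in the genotype comparison. The tables were normalized separately, so levels were tested only within a table. Read depth is unknown, since only normalized values were used, and these summed to between 3.32e+07 and 5.07e+07 per library.

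The labels were checked against markers. The summed level of 9 MuSC markers (among them Pax7, Myf5 and Calcr) was 4698 to 7018 RPM in fresh MuSCs and 666 to 719 RPM in myoblasts, and that of 5 markers of activated or committed myoblasts was 1184 to 1484 and 6268 to 7307 RPM. Sdc4 led the first sum in fresh MuSCs (mean 3306 RPM) and Myog the second in myoblasts (3747 RPM). Itga7 (206.5 and 304.5 RPM) and Mki67 (92.0 and 71.9 RPM) were not called. In the genotype comparison the sums were 4046 to 7794 and 254 to 995 RPM in Nedd4L-WT, and 2782 to 6431 and 448 to 818 RPM in Nedd4L-cKO libraries. Of these markers, Chrdl2 and Cd34 were called lower and Ccnb1 higher in Nedd4L-cKO MuSCs. Nedd4l, the targeted gene, was at 70.2, 96.5 and 66.7 RPM in Nedd4L-WT MuSCs and at 30.2, 36.3 and 22.5 RPM in Nedd4L-cKO MuSCs (log2 fold change -1.37 ± 0.28 SE, adjusted p = 0.0467, limma). All 6 pericyte and smooth muscle markers had a mean above 1 RPM in both genotypes, and their summed level was 1183 to 1956 RPM in Nedd4L-WT and 2174 to 3287 RPM in Nedd4L-cKO libraries, with Rgs5 at 280, 570 and 1034 RPM and at 355, 1270 and 1945 RPM. In the culture comparison the same sum was 1093 to 1403 RPM in fresh MuSCs and 1642 to 2411 RPM in myoblasts, with Acta2 making up nearly all of it and Rgs5 at no more than 22.7 RPM. Of 6 endothelial markers, Kdr and Emcn had no value in either table and were taken as 0, and the sum was at most 17.2 RPM in the culture comparison, 16.0 to 29.5 RPM in Nedd4L-WT and 21.5, 26.7 and 55.4 RPM in Nedd4L-cKO libraries. Mitochondrially encoded genes took 2.83% to 4.04% of the normalized counts in Nedd4L-WT and 5.60% to 6.21% in Nedd4L-cKO libraries. The fibro-adipogenic sum was 457 to 620 RPM in fresh MuSCs, 3.07 to 4.51 RPM in myoblasts, 715 to 1983 RPM in Nedd4L-WT and 687 to 2570 RPM in Nedd4L-cKO libraries. Schwann markers summed to at most 31.5 RPM, immune markers to at most 4.21 RPM, and myofiber markers to 99.8 to 309 RPM in fresh MuSCs, 7158 RPM or more in myoblasts, 128 to 314 RPM in Nedd4L-WT and 338 to 383 RPM in Nedd4L-cKO libraries.

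In myoblasts, 7 of the 10 genes were called lower than in fresh MuSCs, none was called higher, and Notch3, Dll1 and Hes1 were not called. Over all tested genes 20.6% were called lower and 22.2% higher in myoblasts. The median log2 fold change was -2.07 over the 10 genes and 0.04 over all tested genes. The 4 steepest falls were those of Dtx4, Heyl, Jag1 and Hey1, each more than 20-fold. In a bulk library, fewer cells of a type and less RNA per cell cannot be told apart. The groups did not overlap in the 7 called genes, as was the case for 26.8% of all tested genes in the lower direction and 28.4% in the higher direction.

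**Figure D1:**
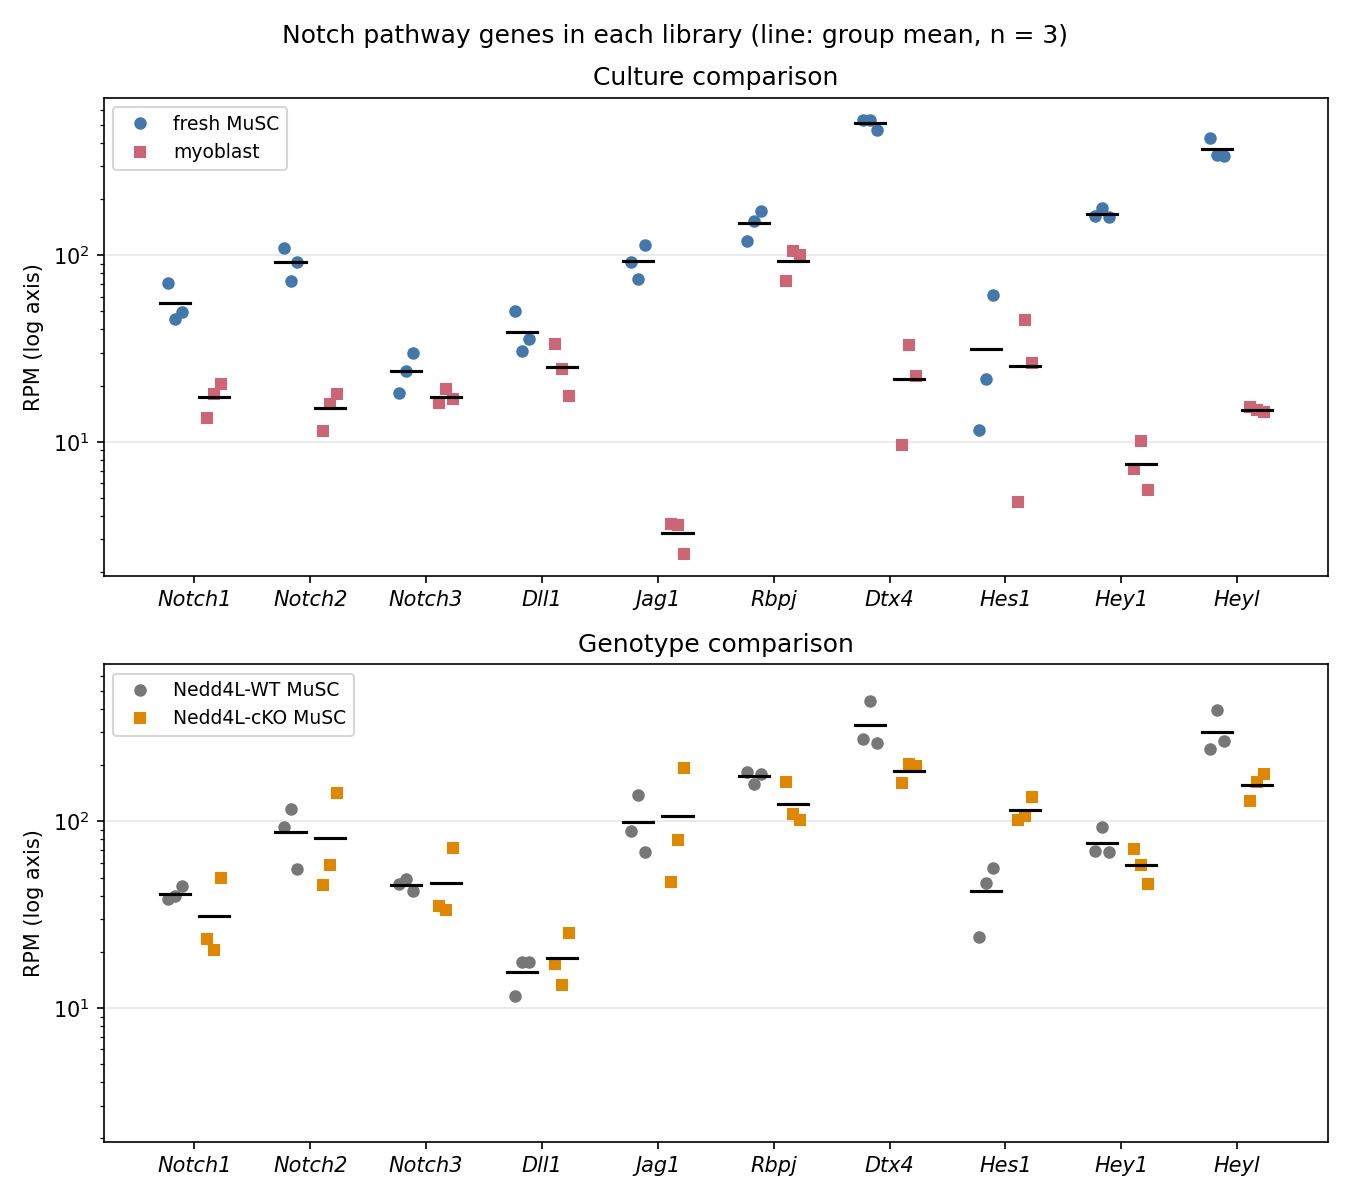
Level of each gene in each library, in RPM on a log axis, for fresh MuSCs and myoblasts (top) and for Nedd4L-WT and Nedd4L-cKO MuSCs (bottom). Points are libraries and black lines are means of 3. In the top panel Jag1, Dtx4, Hey1 and Heyl lie more than a factor of 10 lower in myoblasts while the points of Notch3, Dll1 and Hes1 overlap, and in the bottom panel only Hes1, Dtx4 and Heyl have groups that do not overlap.

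Among the receptors, Notch1 and Notch2 fell while Notch3 was not called. Notch1 (ENSMUSG00000026923, minus strand of chromosome 2 of GRCm39, 26347915 to 26406675) was at 71.2, 45.4 and 49.6 RPM in fresh MuSCs and at 13.5, 17.95 and 20.5 RPM in myoblasts. Every myoblast library was below every MuSC library, with a mean of 55.4 ± 13.8 RPM (SD, n = 3) against 17.3 ± 3.54 RPM (log2 fold change -1.62 ± 0.27 SE, limma adjusted p = 0.00166). Notch2 (ENSMUSG00000027878, plus strand of chromosome 3, 97920800 to 98057677) was at 109.8, 72.7 and 91.6 RPM in fresh MuSCs and at 11.5, 15.9 and 18.0 RPM in myoblasts. Its 6.05-fold lower level was the largest change among the receptors (log2 fold change -2.52 ± 0.26 SE, limma adjusted p = 0.000117). Notch3 (ENSMUSG00000038146, minus strand of chromosome 17, 32339794 to 32385893) was at 18.3, 23.9 and 29.7 RPM in fresh MuSCs and at 16.2, 19.1 and 17.01 RPM in myoblasts. The groups overlapped, and the 95% confidence interval of its log2 fold change ran from -1.03 to 0.20 around -0.41 (limma adjusted p = 0.245). The fourth receptor, Notch4, was at or below 1.07 RPM in all 6 of these libraries. The union exons of Notch1 and Notch3 overlap genes on the opposite strand over 1996 and 804 bases and those of Notch2 a gene on the same strand over 541 bases, and the library kit does not mark strand, so reads in these stretches cannot be assigned with certainty.

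Because the receptors did not fall equally, their makeup was compared as the share of each in the summed receptor level per kb of exon within a library. The share of Notch2 was 54.8 ± 2.76% (SD, n = 3) in fresh MuSCs and 29.1 ± 2.54% in myoblasts, and that of Notch3 was 18.5 ± 5.63% and 42.7 ± 4.84%. With this length, Notch3 had the smallest share of the 3 main receptors in every fresh MuSC library and the largest in every myoblast library, with 12.01%, 21.5% and 22.0% against 46.9%, 43.7% and 37.4%. The share of Notch1 was 26.3 ± 3.20% and 26.4 ± 1.92%, and that of Notch4 was 0.481 ± 0.13% and 1.75 ± 0.65%. For the shares of Notch2, Notch3 and Notch4 the groups did not overlap (p = 0.1 in two-sided exact permutation tests, below which 3 against 3 libraries cannot go), and the lowest adjusted p of 8 such tests over both comparisons was 0.267. Taking the longest transcript as the length gave mean shares of 17.4% and 39.5% for Notch3, and in myoblast replicate 6 Notch1 (35.2%) then lay above Notch3 (34.3%).

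**Figure D2:**
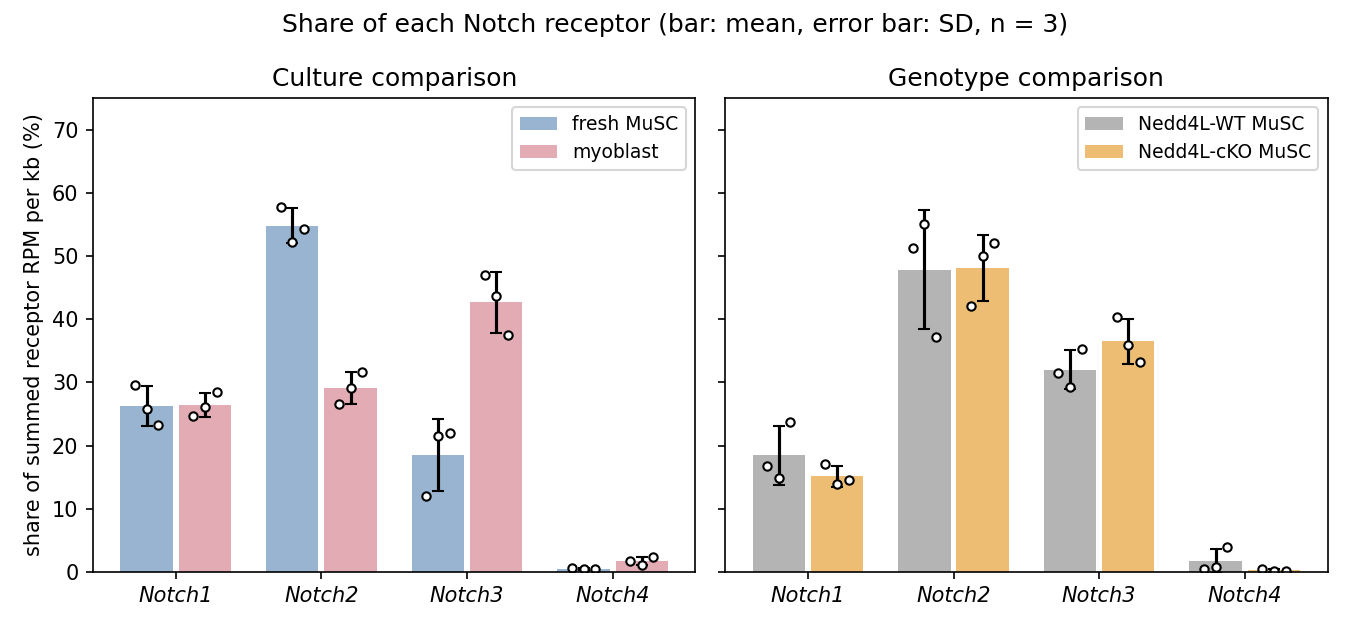
Share of each Notch receptor in the summed receptor RPM per kb of exon, in percent. Bars are means, error bars SD and open points the 3 libraries of a group. Notch2 takes 54.8% in fresh MuSCs and 29.1% in myoblasts and Notch3 18.5% and 42.7%, while in the genotype comparison the groups overlap for all 4 receptors.

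Of the ligands, Jag1 fell in myoblasts and Dll1 was not called. Jag1 (ENSMUSG00000027276, minus strand of chromosome 2, 136923373 to 136958693), a Jagged ligand, was at 92.1, 74.6 and 112.7 RPM in fresh MuSCs and at 3.63, 3.56 and 2.50 RPM in myoblasts. It was 28.8-fold lower in myoblasts (log2 fold change -4.47 ± 0.28 SE, limma adjusted p = 8.03e-06). Dll1 (ENSMUSG00000014773, minus strand of chromosome 17, 15587276 to 15597134), a Delta ligand known from activated and committing myogenic cells, was at 50.1, 30.7 and 35.7 RPM in fresh MuSCs and at 33.6, 24.7 and 17.6 RPM in myoblasts. The Dll1 groups overlapped (log2 fold change -0.62, 95% confidence interval -1.31 to 0.07, limma adjusted p = 0.133), and without myoblast replicate 4 it was called lower (log2 fold change -0.84, adjusted p = 0.0414). Jag1 had 1.84, 2.43 and 3.16 times the RPM of Dll1 in fresh MuSCs and 0.108, 0.144 and 0.142 times in myoblasts, so the ligand gene with the higher RPM was Jag1 in the MuSCs and Dll1 in the myoblasts of every mouse. These ratios are of RPM within a library and are not corrected for transcript length. Exons of Dll1 overlap Fam120b and another gene on the opposite strand over 1725 bases, where unstranded reads cannot be assigned with certainty.

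Rbpj, the DNA-binding partner of the Notch intracellular domain, changed least among the called genes. Rbpj (ENSMUSG00000039191, plus strand of chromosome 5, 53623494 to 53814704) was at 119.5, 153.4 and 171.5 RPM in fresh MuSCs and at 73.2, 105.8 and 99.95 RPM in myoblasts. The lowest MuSC library lay above the highest myoblast library (log2 fold change -0.67 ± 0.22 SE, limma adjusted p = 0.0385). The call was lost in 8 of 14 alternatives, including without fresh MuSC replicate 5 or 6 (adjusted p = 0.110 and 0.128), without myoblast replicate 4, 5 or 6 (0.0677, 0.0551 and 0.0616) and with each library scaled to its own total (0.0926). The direction was lower in each of them.

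Dtx4 (ENSMUSG00000039982, minus strand of chromosome 19, 12443699 to 12479479), a Deltex family ubiquitin ligase that acts on Notch receptors, had the highest RPM of the 10 genes in fresh MuSCs. It was at 532.2, 529.9 and 471.3 RPM in fresh MuSCs and at 9.66, 32.8 and 22.6 RPM in myoblasts. It was 23.6-fold lower in myoblasts (log2 fold change -4.65 ± 0.37 SE, limma adjusted p = 2.83e-05). The MuSC libraries were close together, with a coefficient of variation of 6.75%, and the myoblast libraries were spread, at 53.5%.

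The 3 target genes encode basic helix-loop-helix repressors, and Hey1 and Heyl fell while Hes1 was not called. Hey1 (ENSMUSG00000040289, minus strand of chromosome 3, 8726956 to 8732385) was at 161.8, 179.1 and 159.3 RPM in fresh MuSCs and at 7.15, 10.03 and 5.51 RPM in myoblasts, 22.0-fold lower (log2 fold change -4.32 ± 0.25 SE, limma adjusted p = 5.93e-06). Heyl (ENSMUSG00000032744, plus strand of chromosome 4, 123127349 to 123143682) was at 424.2, 345.7 and 341.3 RPM in fresh MuSCs and at 15.4, 14.8 and 14.5 RPM in myoblasts. Its 24.9-fold lower level had rank 27 by p-value among all tested genes (log2 fold change -4.54 ± 0.19 SE, limma adjusted p = 1.07e-06). Hes1 (ENSMUSG00000022528, plus strand of chromosome 16, 29882134 to 29886643) was at 11.6, 21.6 and 61.2 RPM in fresh MuSCs and at 4.74, 45.0 and 26.3 RPM in myoblasts. It varied more between mice than any other member, with a coefficient of variation of 83.4% in fresh MuSCs and 79.6% in myoblasts. The log2 fold change of Hes1 was -0.43 with a 95% confidence interval of -2.22 to 1.36 (limma adjusted p = 0.687), and it turned to 0.20 without fresh MuSC replicate 6 and to 0.44 without myoblast replicate 4.

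The order of the 10 genes by RPM per kb of exon, which allows levels of genes to be set side by side, differed between fresh MuSCs and myoblasts. In fresh MuSCs Heyl was the highest at 69.97 ± 8.82 RPM per kb (SD, n = 3), followed by Dtx4 at 51.9, Hey1 at 34.8 and Jag1 at 15.6, and none of the first 3 overlapped its neighbour below. Jag1, Rbpj, Hes1, Notch2 and Dll1, from 15.6 down to 7.83 RPM per kb, each overlapped the next, and Notch1 at 3.89 and Notch3 at 2.66 were the lowest and overlapped each other. In myoblasts Hes1 at 7.51, Rbpj at 7.24 and Dll1 at 5.10 RPM per kb had the highest means. Rbpj overlapped both of the others and Dll1 lay above the genes that followed. Hes1 ranged from 1.40 to 13.3 RPM per kb, and its lowest library lay below every Heyl and every Notch3 library. Heyl followed at 2.81, then Dtx4, Notch3, Hey1, Notch2 and Notch1 from 2.20 down to 1.22, each overlapping its neighbour, and Jag1 was the lowest at 0.542 RPM per kb, below all of them. The order depended on the length used: with the longest transcript, Dtx4 (86.8) came before Heyl (81.4) and Rbpj (23.9) before Jag1 (16.2) in fresh MuSCs, and Rbpj (15.03) before Hes1 (9.13) in myoblasts.

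Sequences 5′ of the start of the members are shown for Jag1, Notch2 and Rbpj, which were called lower in myoblasts, and for Notch3, which was not, since RBPJ binds a known DNA element and these genes belong to its own pathway. RefSeq promoters of build GRCm38.p6 were matched by symbol for Notch1, Notch2, Notch3, Dll1, Jag1 and Rbpj, and each sequence is the 250 bases before the start, written 5′ to 3′ on the strand of the gene. The searched letters were TGGGAA, the core of the RBPJ element, and GTGGGAA, which contains it, on both strands. Capitals mark TGGGAA or its reverse complement TTCCCA.
Jag1 promoter, minus strand, chr2:137116521-137116770: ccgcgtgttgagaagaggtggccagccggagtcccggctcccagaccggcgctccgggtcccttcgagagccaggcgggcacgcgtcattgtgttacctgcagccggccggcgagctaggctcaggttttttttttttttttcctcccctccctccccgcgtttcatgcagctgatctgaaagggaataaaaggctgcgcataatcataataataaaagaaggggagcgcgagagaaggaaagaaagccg
Notch2 promoter, plus strand, chr3:98013288-98013537: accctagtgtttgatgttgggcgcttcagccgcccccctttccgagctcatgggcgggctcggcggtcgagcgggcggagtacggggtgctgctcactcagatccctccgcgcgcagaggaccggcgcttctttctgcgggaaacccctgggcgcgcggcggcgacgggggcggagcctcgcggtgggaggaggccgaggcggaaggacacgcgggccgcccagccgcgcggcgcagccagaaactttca
Notch3 promoter, minus strand, chr17:32166891-32167140: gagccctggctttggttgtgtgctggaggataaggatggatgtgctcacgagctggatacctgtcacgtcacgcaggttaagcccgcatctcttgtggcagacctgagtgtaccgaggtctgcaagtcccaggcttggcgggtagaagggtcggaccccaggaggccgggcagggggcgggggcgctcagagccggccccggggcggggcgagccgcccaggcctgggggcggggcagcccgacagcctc
Rbpj promoter, plus strand, chr5:53590096-53590345: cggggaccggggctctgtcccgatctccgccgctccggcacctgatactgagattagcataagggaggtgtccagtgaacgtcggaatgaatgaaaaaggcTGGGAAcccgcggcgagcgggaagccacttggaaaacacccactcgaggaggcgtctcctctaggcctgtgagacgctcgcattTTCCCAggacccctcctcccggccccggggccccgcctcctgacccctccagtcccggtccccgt
Rbpj held the core at positions -149 and -65 from the start shown, and the other 5 matched genes held it at none of their listed starts. Dtx4 and the targets Hes1, Hey1 and Heyl had no promoter entry and were not searched. TGGGAA was found in 21.6% of 32851 RefSeq promoters of the same length and GTGGGAA in 5.42%, and none of the matched members held GTGGGAA. A match is a description of these letters, and no match says only that they are not in this window.

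In Nedd4L-cKO MuSCs, none of the 10 genes was called, against 0.203% of all tested genes called lower and 0.451% called higher (limma). At an unadjusted p under 0.05, Hes1 was higher and Heyl and Dtx4 were lower, that is 1 and 2 of 10 genes, where 7.51% and 7.13% of all tested genes passed. The groups did not overlap in the same 3 genes, against 9.75% of all tested genes in the higher and 9.59% in the lower direction. The median log2 fold change of the 10 genes was -0.31, and that of all tested genes 0.0015. Over all genes, the calls were 69 in the higher and 31 in the lower direction, and 49 and 38 with each library scaled to its own total.

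Hes1 had the largest difference of the 10 genes between genotypes. It was at 23.95, 46.8 and 56.3 RPM in Nedd4L-WT and at 102.2, 107.3 and 135.9 RPM in Nedd4L-cKO MuSCs. All 3 Nedd4L-cKO libraries lay above all 3 Nedd4L-WT libraries, and the means of 42.4 ± 16.6 and 115.1 ± 18.2 RPM (SD, n = 3) differed by 2.72-fold. The log2 fold change was 1.49 ± 0.32 SE with a 95% confidence interval of 0.80 to 2.19, and the adjusted p of 0.0584 (limma, rank 147 of all tested genes) missed the threshold. It passed when each library had to reach 10 normalized counts (adjusted p = 0.0207) and without Nedd4L-WT replicate 3 (0.0359), and over the 14 alternatives the adjusted p ran from 0.0207 to 0.160. The share of mitochondrially encoded counts and the summed pericyte and smooth muscle markers were also higher in every Nedd4L-cKO than in every Nedd4L-WT library. Among the latter markers, Acta2 and Myh11 had groups that did not overlap, while Rgs5, Kcnj8, Abcc9 and Pdgfrb overlapped. Acta2 was at 949, 513 and 700 RPM in Nedd4L-WT and at 1661, 1066 and 993 RPM in Nedd4L-cKO MuSCs. The summed myofiber markers were 128 to 314 RPM and 338 to 383 RPM. The part of these in the Hes1 difference was not tested.

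Heyl and Hey1, the other targets, were not higher in Nedd4L-cKO MuSCs. Heyl was at 244.4, 393.8 and 271.4 RPM in Nedd4L-WT and at 128.2, 162.6 and 180.5 RPM in Nedd4L-cKO MuSCs. Every Nedd4L-cKO library was below every Nedd4L-WT library, by 1.93-fold in the means (log2 fold change -0.93 ± 0.27 SE, limma adjusted p = 0.140), and the adjusted p was 0.0998 to 0.495 over the alternatives. Hey1 was at 69.6, 93.1 and 68.4 RPM and at 71.1, 58.2 and 46.0 RPM, and its groups overlapped (log2 fold change -0.40, 95% confidence interval -0.98 to 0.17, adjusted p = 0.522). The ratio of Hes1 to Heyl in RPM was 0.0980, 0.119 and 0.208 in Nedd4L-WT and 0.797, 0.660 and 0.753 in Nedd4L-cKO MuSCs, a gap that does not depend on the scaling between libraries. The same ratio was 0.0273, 0.0626 and 0.179 in fresh MuSCs and 0.307, 3.05 and 1.82 in myoblasts. The ratio was looked at after the values of both genes were seen and is given as a description.

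**Figure D3:**
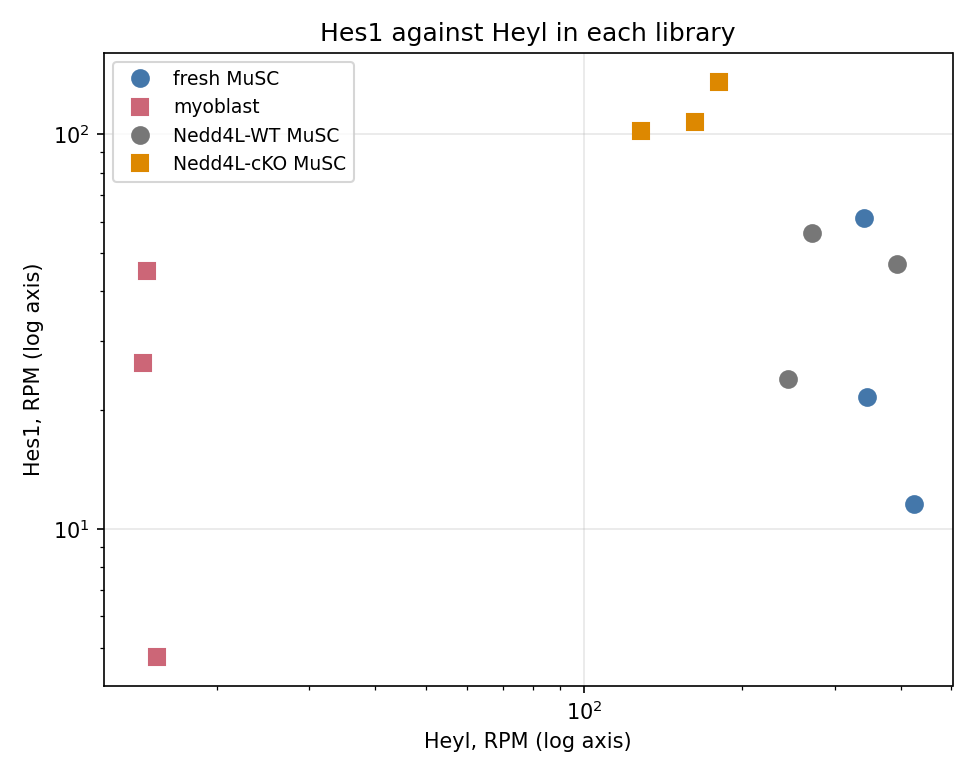
Hes1 against Heyl in each of the 12 libraries, both in RPM on log axes, with circles for the control group and squares for the compared group of each table. Myoblasts sit at 14.5 to 15.4 RPM of Heyl with Hes1 within the range of fresh MuSCs or below it, and Nedd4L-cKO MuSCs sit at lower Heyl and higher Hes1 than the Nedd4L-WT libraries.

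Dtx4 was at 275.6, 443.0 and 264.8 RPM in Nedd4L-WT and at 160.0, 202.2 and 198.2 RPM in Nedd4L-cKO MuSCs. Its groups did not overlap, and the difference did not pass the threshold (log2 fold change -0.78 ± 0.27 SE, limma adjusted p = 0.217). Rbpj was at 184.1, 159.5 and 179.5 RPM and at 161.7, 109.2 and 101.6 RPM, with overlapping groups (log2 fold change -0.51, 95% confidence interval -1.07 to 0.04, adjusted p = 0.382).

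Notch1, Notch2, Notch3, Dll1 and Jag1 overlapped between genotypes, and Nedd4L-cKO replicate 3 stood above its group in these 5 genes. Notch1 was at 38.5, 39.7 and 44.8 RPM in Nedd4L-WT and at 23.4, 20.6 and 49.7 RPM in Nedd4L-cKO MuSCs (log2 fold change -0.49, 95% confidence interval -1.21 to 0.23, adjusted p = 0.535). Notch2 was at 93.5, 115.9 and 55.5 RPM and at 45.8, 58.4 and 141.2 RPM (-0.22, interval -1.11 to 0.68, adjusted p = 0.844). Notch3 was at 46.0, 49.3 and 42.1 RPM and at 35.1, 33.6 and 72.0 RPM (-0.05, interval -0.73 to 0.63, adjusted p = 0.955). Notch4, outside the 10 genes, was at 0.615, 1.40 and 4.57 RPM and at 0.423, 0.103 and 0.305 RPM, with no overlap and no call (-1.13, adjusted p = 0.222). For Notch1 and Notch3 all Nedd4L-WT libraries lay below Nedd4L-cKO replicate 3 and above its replicates 1 and 2, and for Notch2 the lowest Nedd4L-WT library fell between replicates 1 and 2. Jag1 was at 88.6, 139.2 and 68.8 RPM and at 47.5, 79.3 and 194.1 RPM (-0.07, interval -1.05 to 0.91, adjusted p = 0.960), and Dll1 was at 11.6, 17.6 and 17.7 RPM and at 17.2, 13.3 and 25.2 RPM (0.21, interval -0.50 to 0.92, adjusted p = 0.807). These intervals include changes of 1.5-fold and more in both directions for Notch2, Notch3 and Jag1.

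Nedd4L-cKO replicate 3 was the highest library of its group in 7 of the 10 genes and in 35.8% of all tested genes. Genes whose longest transcript is 5 kb or longer had a median log2 deviation from the group mean of 0.06 in this library and of -0.07 in Nedd4L-cKO replicate 1. Each receptor, Jag1, Rbpj and Dtx4 are that long. Of these, Rbpj (101.6 RPM) was at its lowest in replicate 3 and Dtx4 (198.2 RPM) was not at its highest. Dll1, Hes1 and Heyl, with shorter transcripts, were also highest in replicate 3. The summed endothelial markers of replicate 3 were 55.4 RPM against 21.5 and 26.7 RPM in the other libraries of the group. Pecam1 made up most of this sum, at 49.9 RPM against 19.7 and 25.7 RPM. Vwf was at 5.25 RPM against 1.36 and 0.708 RPM, and Tie1 was lower, at 0.193 RPM against 0.467 and 0.234 RPM. Cdh5, Kdr and Emcn had no value. Rgs5 was at 1945 RPM in replicate 3 against 355 and 1270 RPM. The part of these in the receptor values was not tested. Without this library, the log2 fold changes were -0.87 for Notch1 (adjusted p = 0.154), -0.70 for Notch2 (0.289), -0.40 for Notch3 (0.412) and -0.62 for Jag1 (0.358), and Dll1 turned to -0.02, none of them called.

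The receptor shares overlapped between genotypes, with Notch2 at 47.8 ± 9.45% (SD, n = 3) in Nedd4L-WT and 48.1 ± 5.26% in Nedd4L-cKO MuSCs. Notch3 took 32.0 ± 3.03% and 36.5 ± 3.58%, Notch1 18.5 ± 4.67% and 15.2 ± 1.65%, and Notch4 1.72 ± 1.89% and 0.250 ± 0.21% (exact two-sided permutation tests, p = 0.2 to 0.9). The ratio of Notch3 to Notch1 in RPM did not overlap, at 1.195, 1.242 and 0.9405 in Nedd4L-WT and 1.499, 1.635 and 1.45 in Nedd4L-cKO MuSCs. This ratio was not tested and is given as a description. By RPM per kb of exon, Heyl (57.3) and Dtx4 (33.3) led in Nedd4L-WT MuSCs and Hes1 was in the sixth place at 12.55 RPM per kb. In Nedd4L-cKO MuSCs Hes1 led at 34.1 and Heyl followed at 29.7 RPM per kb, with overlapping ranges, and then Dtx4 at 18.95, Jag1 at 17.95 and Hey1 at 12.2, with the last 3 overlapping their neighbours. The 3 receptors among the 10 genes and Dll1 were the lowest in both genotypes, at 2.19 to 7.84 RPM per kb. With the longest transcript as the length, Hes1 (41.5), Heyl (34.5) and Dtx4 (31.7) still led in Nedd4L-cKO MuSCs, and Rbpj came before Jag1 in both genotypes (28.2 against 17.2 in Nedd4L-WT and 20.1 against 18.6 in Nedd4L-cKO).

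**Figure D4:**
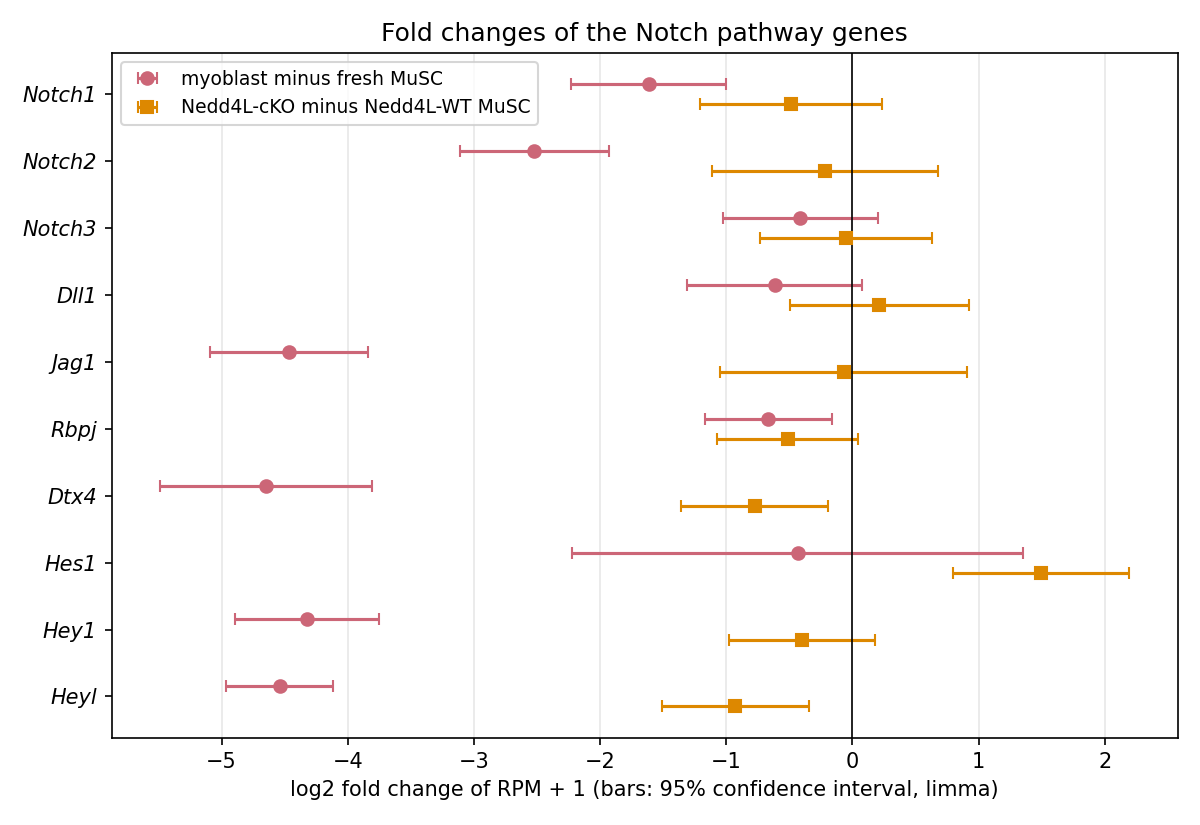
Log2 fold change of RPM + 1 of each gene between myoblasts and fresh MuSCs (circles) and between Nedd4L-cKO and Nedd4L-WT MuSCs (squares). Bars are 95% confidence intervals from limma. In the culture comparison Jag1, Dtx4, Hey1 and Heyl lie between -4.32 and -4.65, and in the genotype comparison the intervals of Hes1 (above 0) and of Dtx4 and Heyl (below 0) leave out 0, with no gene called.

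A list of 94 pathway genes, which includes the 10, sets these values among the other ligands, modifiers and cofactors. Of the 86 tested in the culture comparison, 15 were called higher and 33 lower in myoblasts (17.4% and 38.4%, beside 22.2% and 20.6% of all tested genes), with a median log2 fold change of -0.47. Without the 10 genes, 15 were higher and 26 lower of 76. Dll4, Dtx1, Hes2 and Hes5 were not analysed here in the culture comparison, and Hey2, another Hey repressor, was too low to be tested.

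Other ligands moved in both directions. The canonical ligand Jag2 rose from 6.40 to 39.5 RPM (log2 fold change 2.58 ± 0.40 SE, limma adjusted p = 0.00104), while Jag1 fell. Dner, a non-canonical ligand, was listed at 0 in all 3 MuSC libraries and was at 32.7, 44.6 and 37.9 RPM in myoblasts, and Dlk2 was at 0.718, 0 and 0 RPM and at 44.7, 27.0 and 16.1 RPM. Dlk1, a non-canonical ligand, fell from 29.9 to 3.90 RPM (-2.69, adjusted p = 0.00632) and Mfap2, a microfibril protein that can bind Notch, from 9.52 to 1.02 RPM (-2.38, adjusted p = 0.000628).

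Of 8 tested genes that glycosylate Notch, Gxylt2, a xylosyltransferase, fell from 398 to 4.17 RPM (log2 fold change -6.21, limma adjusted p = 1.78e-06), and Poglut1 fell by 0.69 on the log2 scale. Lfng, the Fringe enzyme that changes the response of receptors to Delta and Jagged ligands, was below 0.1 RPM in every MuSC library and at 5.82, 7.39 and 4.34 RPM in myoblasts, and Pofut1, which adds the O-fucose that Fringe extends, rose from 12.5 to 28.0 RPM. Of 10 cleavage genes, 5 were lower and 2 higher (50% and 20%, beside 20.6% and 22.2% of all tested genes). The gamma-secretase subunits Aph1b (-1.24), Aph1c (-1.09), Psenen (-1.04) and Ncstn (-0.82) were among those that fell, while Aph1a (2.26) and the convertase Furin (1.13) rose. Of 18 ubiquitin and trafficking genes, Mib1, the ligase that drives ligand endocytosis, fell from 123 to 32.0 RPM (-1.89, adjusted p = 0.000552), as did Neurl1b (-3.72), Dtx3l (-2.49), and Dtx4, while Neurl1a (3.00), Numbl (2.54) and Dtx2 (2.05) rose.

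In the nuclear complex, 5 of 11 genes were lower and 2 higher (45.5% and 18.2%, beside 20.6% and 22.2% of all tested genes). Kat2b (-3.31), Crebbp (-1.07), Maml2 (-0.92) and Rbpj were among the former and the Mastermind Maml3 (1.84) and Kat2a (0.82) were the latter. Of 18 genes that the list groups with the corepressors, Tle4 (-1.57), Rbpjl (-1.17), Cir1 (-1.10) and Hdac2 (-0.75) were lower and Bend6 (3.33) and Ctbp1 (1.04) higher. These are 22.2% and 11.1%, the first near the share of all tested genes. Rbpjl was near the floor, with means of 1.64 RPM in fresh MuSCs and 0.126 RPM in myoblasts. Of 10 tested genes that the list groups as targets, 6 were lower and 1 higher (60% and 10%). Calcr, counted among them, is also a MuSC marker of the label check. Besides Hey1 and Heyl, the lower ones were Calcr, Col5a1, Col5a3 and Col6a1, which link Notch to the MuSC niche (Col5a1 is named here after its values were seen), with Calcr going from 199 to 0.152 RPM and Col5a3 from 242 to 2.02 RPM. The fibro-adipogenic markers Dpt (411, 461 and 507 RPM), Col1a1 (37.95, 112 and 91.4 RPM) and Dcn (5.75, 46.1 and 19.9 RPM) in fresh MuSCs were at 0.702 RPM or less in every myoblast library, and the other 2 of the 5 markers, Pdgfra and Ly6a, were at 2.83 RPM or less in all 6 libraries. The part of these cells in the collagen values was not tested. Hes6, a Hes family member that promotes differentiation and opposes Hes1, was the higher one, from 134.6, 120.9 and 117.8 RPM to 3112, 2280 and 2390 RPM (log2 fold change 4.36 ± 0.18 SE, adjusted p = 1.07e-06). The 3 targets not called were Hes1, Nrarp and Hes7, the last 2 named here after their values were seen. Nrarp had means of 3.27 and 3.04 RPM (-0.18, limma adjusted p = 0.785). Hes7 was near the floor, with means of 0.498 and 0.491 RPM.

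**Figure D5:**
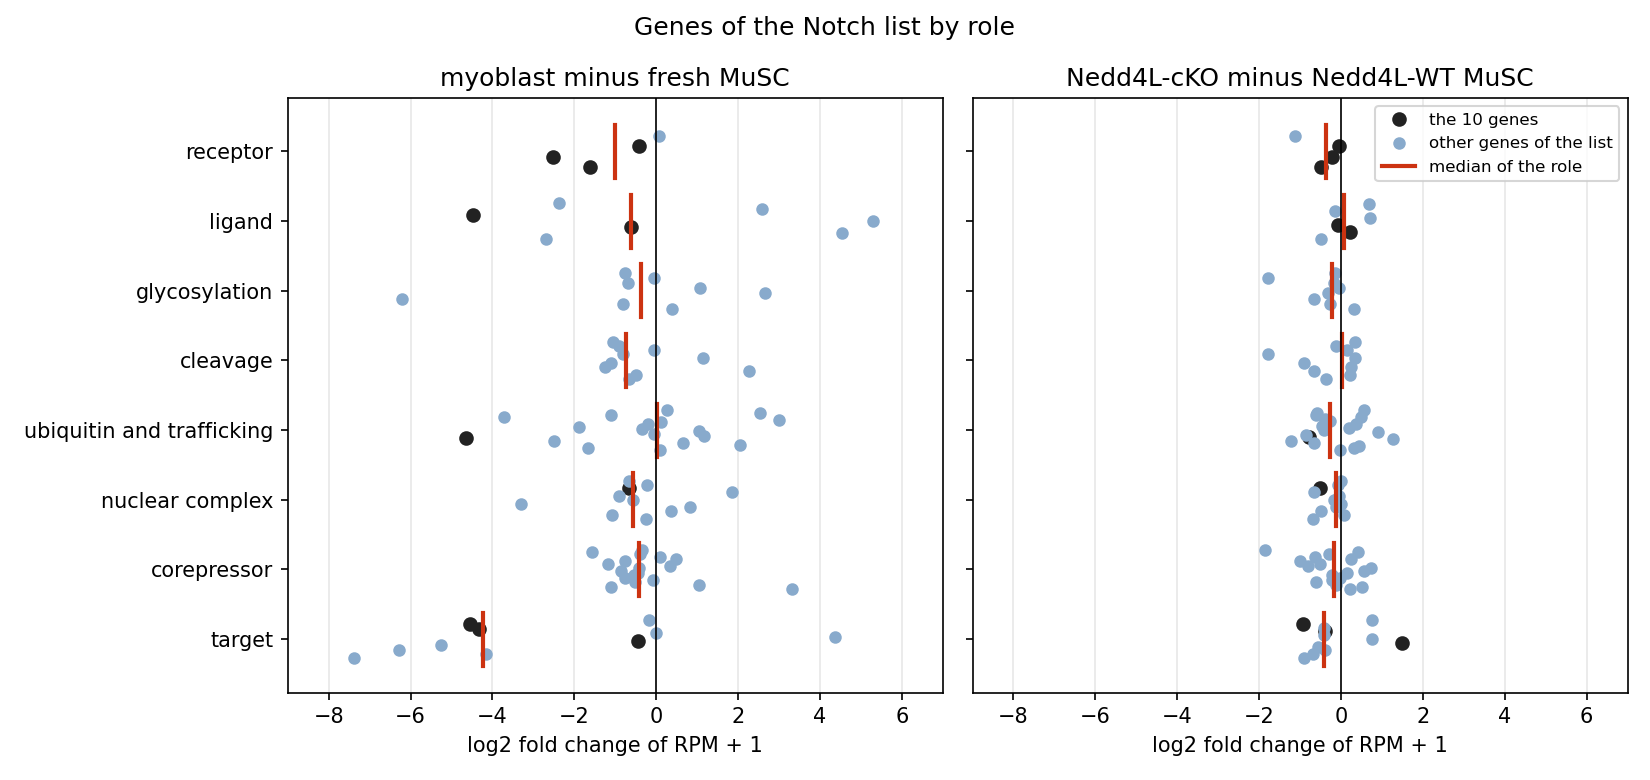
Log2 fold change of RPM + 1 of every tested gene of the Notch list, by role, between myoblasts and fresh MuSCs (left) and between Nedd4L-cKO and Nedd4L-WT MuSCs (right). Black points are the 10 genes, blue points the other genes and red lines the median of each role. On the left the targets, which include the MuSC marker Calcr at -7.38, have a median of -4.24. The ligands there spread from -4.47 to 5.29, and on the right all genes lie between -1.86 and 1.49.

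Between genotypes, 0 of 87 tested genes of the list were called (limma), against 0.451% of all tested genes called higher and 0.203% called lower. At an unadjusted p under 0.05, 7 were higher and 14 lower (8.05% and 16.1%, beside 7.51% and 7.13% of all tested genes), and the median log2 fold change was -0.18. Dll3, Dlk2, Dner, Lfng, Hes2 and Hes5 were not analysed here in this comparison. The genes named in this paragraph were chosen after their values were seen. Ncstn, a gamma-secretase subunit, was at 170.8, 158.1 and 187.4 RPM in Nedd4L-WT and at 24.0, 55.2 and 90.3 RPM in Nedd4L-cKO MuSCs (log2 fold change -1.78 ± 0.39 SE, adjusted p = 0.0648). The Fringe gene Rfng was at 14.5, 17.6 and 14.6 RPM and at 2.40, 2.17 and 9.26 RPM (-1.78 ± 0.45 SE, adjusted p = 0.0976). Both were called when each library had to reach 10 normalized counts (adjusted p = 0.0263 and 0.0464) and without Nedd4L-cKO replicate 3 (0.02003 and 0.0191). Among the genes grouped as targets, Hes6 (0.77, adjusted p = 0.271) and Nrarp (0.76, 0.313) had positive and Calcr (-0.90, 0.152), Col5a1 (-0.69, 0.301) and Col6a1 (-0.57, 0.328) negative log2 fold changes, none called.

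Genes with the nearest pattern over the 12 libraries were sought for Notch3, Hes1 and Heyl among 11491 genes tested in both tables, by the Euclidean distance of log2(RPM + 1) after subtraction of the mean of the MuSC controls of the same table. For Notch3 they were Fnip2 (0.665), Pcdhgc4 (0.699) and Lasp1 (0.72). For Heyl they were Clmn (0.687), Hunk (0.897) and Tek (1.01), whose log2 fold changes between genotypes were -0.65, -0.91 and -1.31 (adjusted p = 0.339, 0.163 and 0.0729), none called. Hes1 had no neighbour as close, with Klf2 at 2.01, Lypd6 at 2.06 and Rnd1 at 2.15. Klf2 was higher in Nedd4L-cKO MuSCs by 1.77 on the log2 scale (limma adjusted p = 0.0401).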

How the data were processed

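RNA of 1000 cells per library was amplified with the SMART-Seq HT kit, which does not mark strand, and sequenced single-end. The authors estimated transcript abundance with kallisto 0.46.1 on the GENCODE basic annotation, summed it to genes with tximport and normalized it with DESeq2. The deposited values used here are thus a signal, normalized counts, and each comparison has its own table that the authors normalized on its own. Low values (under 20) were whole multiples of a single step, within 0.02, in 35.0% to 62.2% of cases, so reads were not recovered, depth is unknown and no count model was run. The tables also hold the authors' fold changes, p-values and, for genotype, further columns of per-sample values (18 columns), none of which were used. Columns were matched to libraries by mouse number and state.

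Normalized counts were divided by 35.2382 (culture) or 43.6207 (genotype) to give RPM, the divisor being the number of normalized counts worth 1 RPM at the mean of the 6 library totals. Genes that reached 10 normalized counts in 3 or more libraries were tested with limma 3.58.1 in R 4.3.3 (trend and robust options) on log2(RPM + 1) with group as the only term. The step was tested on simulated data. Receptor shares were compared with exact permutation tests, and no correction was made for their shared denominator. Lengths and positions came from GENCODE M39 on GRCm39 and promoters from RefSeq on GRCm38.p6. Python 3.11.15, pandas 2.3.3 and matplotlib 3.10.9 were used.

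The fresh MuSC and myoblast libraries with the same number come from the same mouse, so the numbers pair them. Deviations from the group means correlated by -0.0314, -0.00502 and 0.0180 within pairs. Alternatives were other scalings, a pseudocount of 0.1, other filters, limma without trend and robust options, the replicate block, leaving out each library and, for the shares, another length. The 10 genes, the Notch and marker lists and the rule for named genes were chosen with earlier results of these data known. The rule names the 10 genes, up to 4 called genes of the list per role and direction, the 3 nearest patterns of Notch3, Hes1 and Heyl, and markers. No sequencing batch is given in the labels, so none could be examined.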

Additional observations from a re-analysis of the deposited data

How the results depend on the processing

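Across the 14 alternatives of the culture comparison, Notch1, Notch2, Jag1, Dtx4, Hey1 and Heyl were called lower in each, and Rbpj lost its call in 8. Hes1, which was not called, ran from -1.06 to 0.44 on the log2 scale with a library left out. Scaling each library to its own total moved the median of all tested genes in the culture comparison from 0.04 to 0.14. Between genotypes, 100 genes were called over all genes. The count was 195 when each library had to reach 10 normalized counts, 41 for limma without trend and robust options, and 17 to 148 with a library left out, namely 62 and 32 without Nedd4L-WT replicate 1 or 2 and 49 and 17 without Nedd4L-cKO replicate 1 or 2. Of the 10 genes, 0 were called, and 1, Hes1, under that stricter filter, and 0 to 1 with a library left out. Of the list, 0 were called, and 3 under the stricter filter (Hes1, Ncstn and Rfng) and 0 to 4 with a library left out, the 4 without Nedd4L-cKO replicate 3 being Ncstn, Rfng, Dtx3 and Tle5. Log2 fold changes of genes that were not called between genotypes changed sign with a library left out, with ranges of -0.70 to 0.11 for Notch2, -0.40 to 0.14 for Notch3, -0.0219 to 0.41 for Dll1 and -0.62 to 0.39 for Jag1. The cause was not tested.

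With the mouse as a replicate block in the culture comparison, the same 7 of the 10 genes were called lower. In the genotype comparison the numbers are shared by different mice (correlations 0.0192, -0.0232 and -0.181), and the replicate block gave 62 genes over all, and 0 of the 10 and 0 of the list. With 3 libraries a group, unknown depth and wide intervals, differences of about 1.5-fold between genotypes could not be told from none for Notch2, Notch3 and Jag1. The same held for a fall of Notch1, Rbpj or Hey1 and for a rise of Dll1.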
